A study of Mus musculus with 24 samples.

Results

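MC38-CMAS KO is a line of the mouse colon carcinoma MC38, of C57BL/6 origin, in which CRISPR-Cas9 was aimed at Cmas, and it was set against MC38-MOCK#1, the line made with the same technology and no target gene. The comparison took 6 of the 24 samples of the series, 3 from each line, taken at passages 4, 5 and 6. All genes with a value of 0 in at most 4 of those 6 samples were tested, which was 22024 of 52636 gene identifiers. The other lines served only to place these values: unmodified MC38-WT (passages 7 to 9, the only line grown without puromycin), MC38-MOCK#2 (passages 6 to 8), which carries CRISPR-dCas-VPR, a transcriptional activator, without a target gene, MC38-FUT4 and MC38-FUT9, in which that activator was aimed at the genes of the same names, MC38-COSMC KO (passages 4 to 6) with CRISPR-Cas9 aimed at C1galt1c1 (COSMC), and MC38-DKO (passages 4 to 6) with both genes targeted. The Cas9 mock cells of the study were transfected with an empty construct, and puromycin was present in the culture of every modified line. How MC38-CMAS KO was selected, and whether it came from a single clone, is not given in the sources used here. With 1 line per genotype, loss of Cmas and any other difference between these lines cannot be told apart, and the p-values measure only the spread between the samples of a line.

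CMAS, cytidine monophosphate N-acetylneuraminic acid synthetase, works in the nucleus, where it joins sialic acid to CMP. CMP-sialic acid is the donor that Slc35a1 carries into the Golgi and that all sialyltransferases use to cap N-glycans, O-glycans and gangliosides. Cells without the enzyme lack the donor for these caps. On tumor cells such caps mask galactose from galectins and are ligands of inhibitory Siglec receptors on immune cells.

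Values are normalized counts per gene, which the authors scaled between libraries and rounded to whole numbers. The 6 libraries held an estimated 9750000 to 12900000 counted reads, read from the gaps and doublings that rounding left among low values, and their normalized totals lay between 11049033 and 11340597. A fold change is given as a difference of mean log2(normalized counts + 1), which understates the change of low genes. A gene was called where limma's adjusted p was under 0.05. Of the 8 epithelial markers checked, among them Epcam, Cdh1 and Krt8, none was above 4 normalized counts in any of the 6 samples, and their sum was 1 to 5 in MC38-CMAS KO and 2 to 8 in MC38-MOCK#1. Leukocyte markers summed to 13 to 18 against 6 to 11, endothelial markers to 1 to 6 against 4 to 6, and muscle markers to 31 to 45 against 40 to 53, with Cd3e, Adgre1 and Tek at 0 throughout and no member of these lists called. The fibroblast list summed to 785 to 867 in MC38-CMAS KO and 617 to 775 in MC38-MOCK#1, mostly from Pdgfra, with Thy1 at 0 in all samples. The neural list summed to 582 to 839 and 913 to 924, all of it from Tubb3.

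Cmas RNA was lower in MC38-CMAS KO but was not lost. Cmas (ENSMUSG00000030282, GRCm38 chr6:142756686-142775714, plus strand) was at 117, 93 and 126 normalized counts in MC38-CMAS KO and at 416, 384 and 386 in MC38-MOCK#1. The lines did not overlap, as in 24.3% of all tested genes, and the knockout mean of 112 ± 17.1 (SD, n = 3) was 28.3% of the mock mean of 395 ± 17.9. The log2 fold change was -1.82 ± 0.13 (SE, limma adjusted p = 0.00168), and the gene stayed called with each of the 6 samples left out. MC38-DKO, the other line with Cmas targeted, held 142, 135 and 122. The highest of these 6 targeted samples (142) lay below the lowest of the other 18 (272). By mean level the order of the 8 lines was MC38-CMAS KO, MC38-DKO, MC38-FUT9, MC38-MOCK#2, MC38-COSMC KO, MC38-WT, MC38-FUT4 and MC38-MOCK#1, and neighbours in this order overlapped except MC38-DKO with MC38-FUT9 and MC38-FUT4 with MC38-MOCK#1.

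C1galt1c1 (ENSMUSG00000048970, chrX:38630785-38635087, minus strand), which encodes the chaperone of the O-glycan T-synthase and was targeted in MC38-COSMC KO and MC38-DKO, was at 215, 181 and 152 in MC38-CMAS KO and 242, 220 and 251 in MC38-MOCK#1. The samples did not overlap, but the difference was not called (log2 fold change -0.39, limma adjusted p = 0.168). MC38-DKO held 206, 166 and 175, all inside the range of MC38-CMAS KO.

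**Figure D1:**
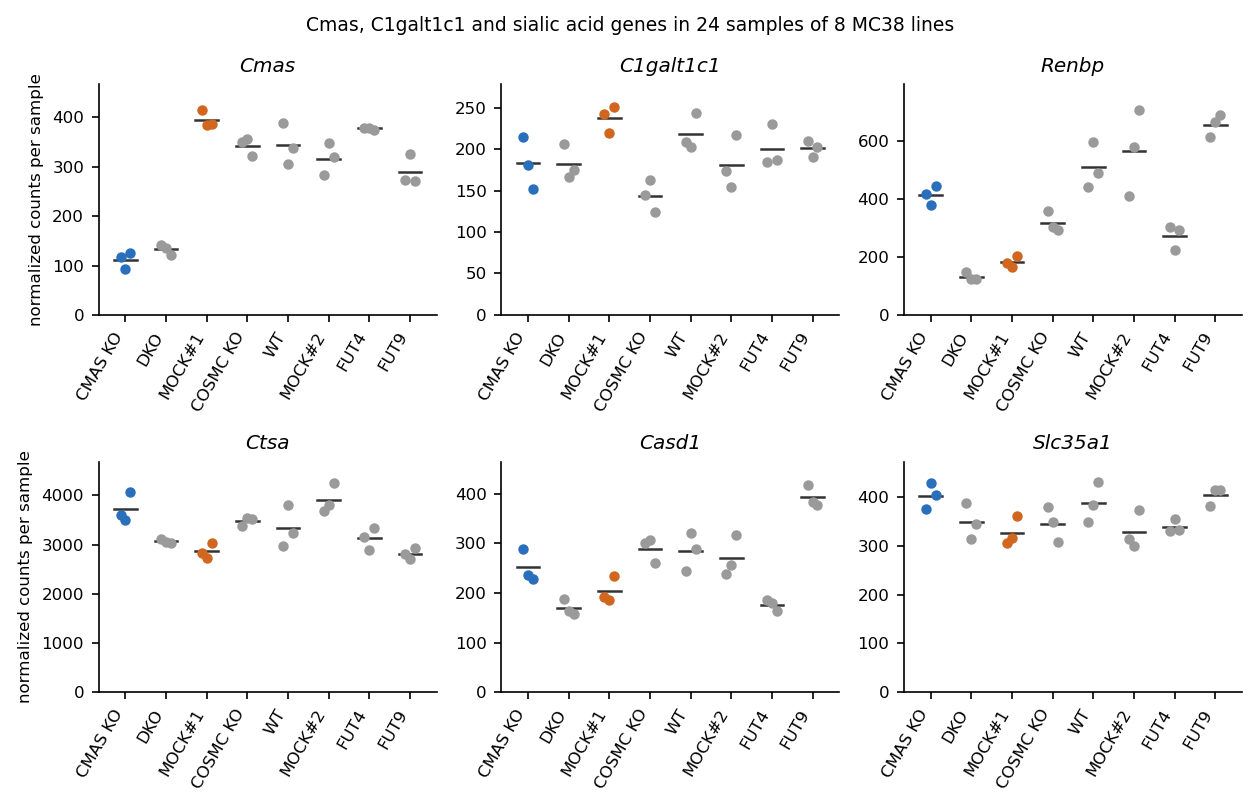
Normalized counts (vertical axes, from 0) of 6 genes in each of the 3 samples of 8 lines (horizontal axes), with MC38-CMAS KO in blue, MC38-MOCK#1 in orange, other lines in grey and bars at the mean. Cmas is at 93 to 142 in the CMAS KO and DKO samples and at 272 or more in all others, and Renbp in MOCK#1 (164 to 203) lies below CMAS KO (377 to 445).

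The remaining sialic acid pathway moved little. Of 17 genes on the list, 14 were tested, 2 were called higher, 1 (Cmas) was called lower and 11 were not called, with a median log2 fold change of 0.08 beside 0.00 over all genes tested. Over all genes 5.76% were called, 3.02% higher and 2.73% lower. Npl, Neu2 and Neu4 were at 0 in all 6 samples.

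Renbp, which encodes the renin-binding protein that interconverts N-acetylglucosamine and N-acetylmannosamine, stood at 415, 377 and 445 in MC38-CMAS KO and at 179, 164 and 203 in MC38-MOCK#1. All knockout samples lay above all mock samples, by 1.18 ± 0.11 on the log2 scale (SE, limma adjusted p = 0.00383), in all 6 fits that left out a sample. MC38-WT (441 to 596) and MC38-MOCK#2 (410 to 705) overlapped the knockout or lay higher, and MC38-MOCK#1 lay below all 9 samples of these 3 lines. Ctsa, the lysosomal protective protein that stabilizes the sialidase NEU1, was at 3609, 3494 and 4074 against 2831, 2724 and 3025. Its change of 0.38 (limma adjusted p = 0.0366) was called with all samples but in none of the 6 fits with a sample left out, and the knockout values overlapped those of MC38-WT (2969 to 3798).

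Genes on either side of Cmas in the pathway were not called. Gne, the rate-limiting enzyme of sialic acid synthesis, was at 213 to 231 against 187 to 240. Nans, which makes sialic acid 9-phosphate, was at 979 to 1098 against 965 to 1066, and Nanp, its phosphatase, at 88 to 188 against 98 to 120. These 3 genes overlapped between the lines. Slc35a1, the Golgi carrier of CMP-sialic acid, was at 375, 429 and 405 against 305, 316 and 361 without overlap (log2 fold change 0.30, limma adjusted p = 0.123). Casd1, which adds acetyl groups to sialic acid, gave 229 to 289 against 185 to 235 (0.30, adjusted p = 0.265 by limma). The sialidase genes Neu1 and Neu3, the lysosomal exporter gene Slc17a5 and the esterase gene Siae overlapped between the lines, as did Nagk. Cmah, which makes the N-glycolyl form of the donor, was at 0 to 1 and 1 to 3 and was not called (limma adjusted p = 0.331).

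The calls among sialyltransferases and other glycosylation genes were small changes. Their counts were not tested against the 5.76% called over all genes. Of 9 tested sialyltransferases, 1 was called, with a list median of 0.07. This was St3gal4, which caps galactose in alpha2,3 linkage, at 454, 453 and 421 in MC38-CMAS KO and 324, 351 and 354 in MC38-MOCK#1 (log2 fold change 0.37, limma adjusted p = 0.0393), with MC38-WT at 472 to 605. Slc35d1, a nucleotide sugar carrier, was the 1 call among 22 nucleotide sugar genes (472 to 558 against 332 to 392, 0.51, adjusted p = 0.0306 by limma). B3gnt3, which extends O-glycans, was the 1 call among 18 O-glycan genes and went down, from 403 to 480 in the mock to 254 to 309 (-0.65, limma adjusted p = 0.0194). Mgat1, which opens the way to complex N-glycans, and Mgat4b, which adds a branch, rose by 0.32 and 0.38 among 21 N-glycan genes. Pofut2 (0.34) was the 1 call among 7 fucosyltransferases. None of these 6 genes stayed called in any fit with a sample left out.

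Among 15 glycosphingolipid genes, 2 were called higher and 2 lower. Psap, the precursor of the saposins that help lysosomal hydrolases, was at 6821, 6663 and 7544 against 4189, 4086 and 4911, without overlap (0.68, limma adjusted p = 0.00979). Gm2a, the GM2 activator, was at 9, 9 and 10 against 1, 0 and 0. Galc, galactosylceramidase, fell by 0.49 on the log2 scale, and for Psap, Gm2a and Galc MC38-MOCK#1 lay outside the 9 samples of MC38-CMAS KO, MC38-WT and MC38-MOCK#2. With a sample left out, this list had 0 or 1 call in 5 of the 6 fits and 4 without the mock sample of passage 6.

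Galectins bind the galactose that sialic acid covers. Of 8 tested, 3 were called, beside 5.76% of all genes, a count that was not tested. Lgals3 stood at 6333, 5759 and 5348 in MC38-CMAS KO and 2472, 2328 and 2138 in MC38-MOCK#1. The lowest knockout sample was above the highest mock sample, and the change of 1.33 ± 0.08 (SE, limma adjusted p = 0.0012) was called in all 6 fits with a sample left out. MC38-WT, at 5785 to 7820, overlapped the knockout. Lgals1 rose by 0.33 (12296 to 13325 against 9688 to 10411). For Lgals3 and Lgals1, MC38-MOCK#1 lay below all samples of MC38-CMAS KO, MC38-WT and MC38-MOCK#2. Both were called lower in MC38-DKO against MC38-COSMC KO (-1.83 and -0.58). Lgals9 was at 101, 42 and 57 against 262, 270 and 408 (-2.28, adjusted p = 0.0134 by limma), with MC38-WT between 86 and 301. Of 17 proteins known to carry sialylated glycans, Ncam1, Nrp1 and Cd44 were called higher and Pdpn, Msln and Emb lower. Ncam1, the carrier of polysialic acid, was at 860, 867 and 966 against 519, 471 and 526 (0.83, limma adjusted p = 0.00391). Emb, an immunoglobulin-family glycoprotein, fell by 0.61 to 635 to 663 and was below all 9 samples of MC38-MOCK#1, MC38-WT and MC38-MOCK#2. With a sample left out, the galectins had 1 or 2 calls and the carriers 1 to 5.

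Over all genes, 1268 of 22024 (5.76%) were called, 666 higher and 602 lower in MC38-CMAS KO, with a median absolute log2 fold change of 0.87 among them. The unadjusted p was under 0.05 for 4723 genes. The number of calls was 371, 156 and 534 without the knockout sample of passage 4, 5 or 6, and 281, 122 and 876 without the mock sample of passage 4, 5 or 6. Of the 1268 genes, 94 were called in the same direction in all 6 of these fits and 419 in none.

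**Figure D2:**
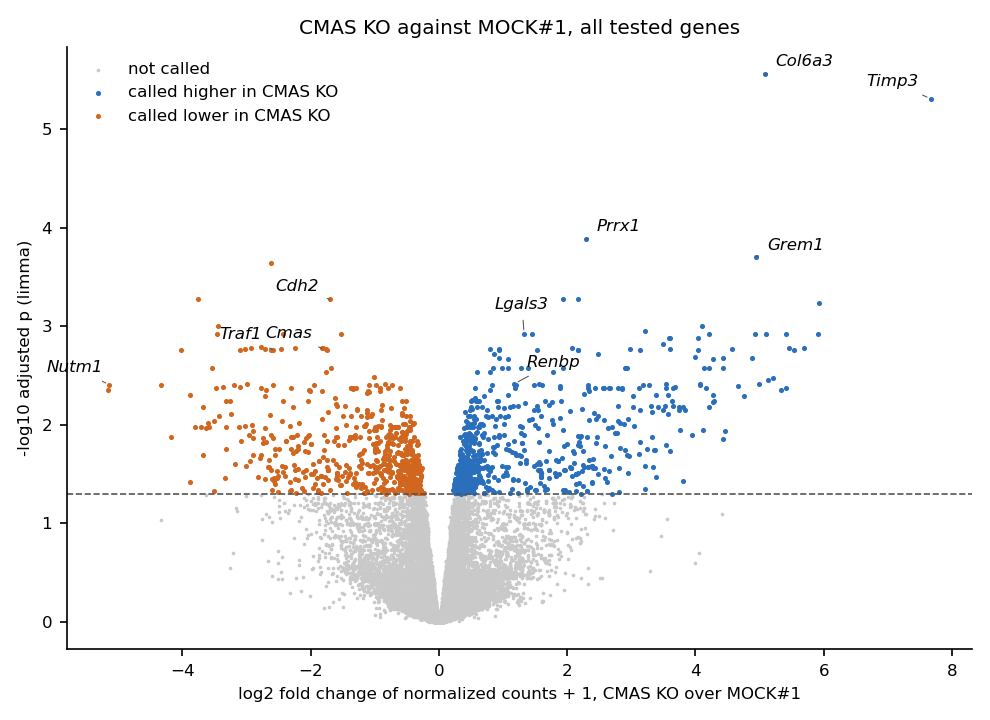
Each point is 1 of 22024 tested genes, with the log2 fold change of MC38-CMAS KO over MC38-MOCK#1 on the horizontal axis and -log10 of limma's adjusted p on the vertical axis, and a dashed line at 0.05. Blue points are the 666 genes called higher, orange points the 602 called lower, and Timp3 (7.67) lies farthest to the right.

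Many of the largest changes were genes nearly silent in 1 of the lines. With at most 5 normalized counts in every sample of a line taken as near 0 and at least 20 in every sample of the other as present, 38 called genes were near 0 in MC38-MOCK#1 and present in MC38-CMAS KO, and 11 were the reverse. Of the 38, 26 were also at 5 or fewer in every MC38-DKO sample, 18 were at 20 or more in every MC38-WT sample and 3 were at 5 or fewer in all of MC38-WT.

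Timp3, a matrix-bound inhibitor of metalloproteinases (ENSMUSG00000020044, chr10:86300372-86349506, plus strand), had the largest fold change. It was at 957, 1113 and 1186 in MC38-CMAS KO and at 5, 4 and 4 in MC38-MOCK#1, a 250-fold ratio of means (log2 fold change 7.67 ± 0.16, limma adjusted p = 4.9e-06). MC38-WT held 519 to 697, MC38-MOCK#2 225 to 359, MC38-COSMC KO 761 to 943 and MC38-FUT9 1338 to 1570, whereas MC38-DKO held 1 to 5 and MC38-FUT4 1 to 12. The RefSeq promoter window of Timp3, from 250 bases before to 50 after the start, is shown because the gene was the clearest on-off difference, with its 24 CG dinucleotides in capitals (GRCm38.p6 chr10:86300162-86300461, plus strand, 5′ to 3′).
Timp3: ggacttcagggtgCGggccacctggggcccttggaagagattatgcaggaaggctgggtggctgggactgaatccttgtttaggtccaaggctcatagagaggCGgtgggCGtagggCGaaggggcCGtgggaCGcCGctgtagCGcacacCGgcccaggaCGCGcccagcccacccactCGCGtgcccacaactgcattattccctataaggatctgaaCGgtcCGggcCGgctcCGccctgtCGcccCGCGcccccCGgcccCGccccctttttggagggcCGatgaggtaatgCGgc
With the richest window of each gene, the median number of CG dinucleotides was 20 over tested genes and 13 over the 23 of the 38 genes near 0 in MC38-MOCK#1 that had a window. Grem1 held 28 and Col6a3 only 3.

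Col6a3, a chain of collagen VI (ENSMUSG00000048126, chr1:90765923-90843971, minus strand), was at 3382, 3522 and 3890 in MC38-CMAS KO and at 108, 96 and 110 in MC38-MOCK#1. The knockout lay 34.4-fold higher with no overlap (5.09 ± 0.09, limma adjusted p = 2.77e-06). MC38-WT (2311 to 4034) overlapped the knockout, and MC38-MOCK#2 (128 to 263) was near MC38-MOCK#1. Itgb8, the integrin chain that pairs with alpha-v, was at 90, 52 and 61 against 0, 1 and 2. Trpa1, a cation channel, was at 186, 164 and 183 against 3, 2 and 10, and Pid1, a regulator of insulin signaling, at 99, 52 and 28 against 1, 0 and 0. Six3os1, the transcript antisense to Six3, was at 30, 39 and 79 against 0 in all mock samples, at least 16.4-fold higher than the 3 counts taken as a floor for a line at 0. Rit2, a small GTPase, was at 30, 52 and 46 against 0, at least 14.2-fold higher on the same floor. Magea10, Pet2 and Cyp2b23 completed the 10 highest, at 50 to 59, 122 to 133 and 47 to 76 in the knockout and at most 7 in the mock. Magea10 and Cyp2b23 belong to families with near-identical members, between which reads may be divided.

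In the other direction, Nutm1 was at 2, 2 and 0 in MC38-CMAS KO and at 66, 61 and 93 in MC38-MOCK#1 (-5.13, limma adjusted p = 0.00393), and it stood at 8 or less in all MC38-WT, MC38-MOCK#2, MC38-DKO and MC38-COSMC KO samples. Syk, the kinase best known from B cells, was at 0, 9 and 2 against 61, 42 and 35, Pdpn, the mucin-like podoplanin, at 2, 4 and 8 against 67, 76 and 53, and Igfbp5, which binds insulin-like growth factors, at 18, 8 and 6 against 88, 103 and 189. No sample of one line reached the other. The imprinted genes Snrpn and Zrsr1 were at 0 to 4 and 0 to 2 in the knockout and at 20 to 31 and 16 to 33 in the mock. Dapp1, Ccdc36 and Igsf5 were at 4 or less in the knockout and at 21 to 58 in the mock. For each of the genes named here the MC38-MOCK#1 samples lay above the 9 samples of MC38-CMAS KO, MC38-WT and MC38-MOCK#2.

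**Figure D3:**
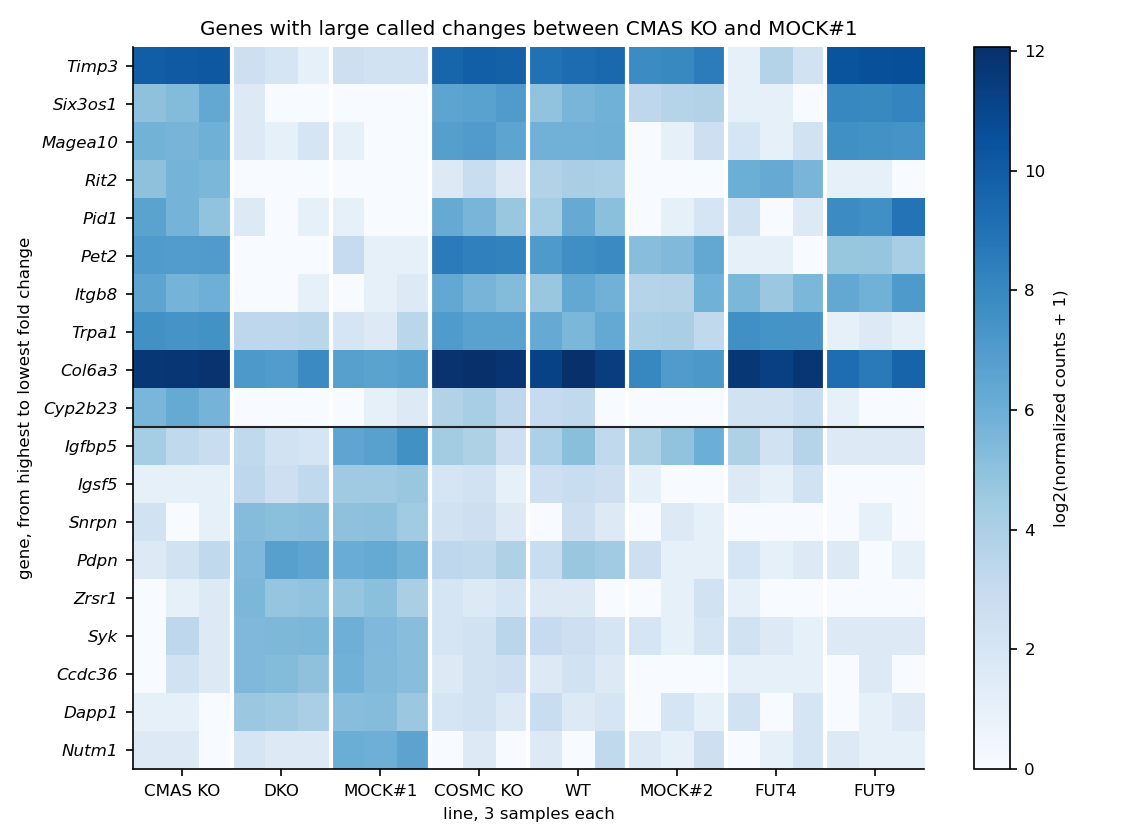
Colour gives log2(normalized counts + 1) for the genes named above among those with the largest called changes, higher ones over the line and lower ones under it (rows), in all 24 samples (columns, 3 per line). Timp3 is low in DKO and MOCK#1 (1 to 5) and in FUT4 (1 to 12). Syk is high in DKO and MOCK#1 (35 to 61), whereas Nutm1 is high in MOCK#1 (61 to 93) and low in DKO (2 to 3).

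To see which of the lines a difference belonged to, both were set against MC38-WT and MC38-MOCK#2. The 3 knockout samples lay above all 9 samples of MC38-MOCK#1, MC38-WT and MC38-MOCK#2 for 321 genes (1.46%) and below for 228 (1.04%). The 3 MC38-MOCK#1 samples lay above all 9 samples of the other lines for 1031 genes (4.68%) and below for 776 (3.52%). The calls use the same knockout and mock samples, so their place among the lines is a description. Of the 666 genes called higher, 142 (21.3%) had the knockout above all 9 and 365 (54.8%) had MC38-MOCK#1 below all 9. Of the 602 called lower, 79 (13.1%) had the knockout below all 9 and 401 (66.6%) had MC38-MOCK#1 above all 9.

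Cmas was among the 79, together with Traf1, Cdh2, Emb, Timp2, Nfkbia, Itga1, Snai2, Wnt10a and Adamts5 from the gene lists. For all of these but Traf1, a line other than the 3 controls overlapped the knockout or lay lower. For Cmas this was only MC38-DKO, where it was also targeted. Timp2 was at 612 to 629 in MC38-FUT4 and Snai2 at 8 to 13 in MC38-FUT9, below the knockout. Traf1, an adaptor of TNF receptors, was at 37, 42 and 46 in MC38-CMAS KO, 338, 234 and 210 in MC38-MOCK#1, 148 to 205 in MC38-WT and 50 to 82 in MC38-MOCK#2. Cdh2, the mesenchymal cadherin, was at 124, 128 and 130 against 433, 425 and 393, with MC38-WT at 167 to 187 and MC38-MOCK#2 at 147 to 173. For both genes MC38-MOCK#1 also lay above MC38-WT and MC38-MOCK#2, so the mock and the knockout stood at opposite ends of these 4 lines. Padi4, which turns arginine into citrulline, had 114 normalized counts on average against 547 in MC38-MOCK#1, 371 in MC38-WT and 827 in MC38-MOCK#2, and Krt20, an intestinal keratin, 38.3 against 0.67, 1.33 and 0.33. Outside these control lines, MC38-FUT4 had 393 for Krt20, above the knockout, and MC38-FUT4 and MC38-FUT9 had 23.7 and 24.3 for Padi4, below it. These 2 genes were chosen after their values were seen. Among the list genes above all 9 controls were Timp3, Col1a1, Inhba, Il1rl1, Ddit4l, Cdkn1c and H19. By mean, MC38-FUT9 was above the knockout for Timp3 (1481) and Inhba (466), and MC38-FUT4 for Il1rl1 (7153) and Cdkn1c (66). No other line was above it by mean for Col1a1 or Ddit4l.

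Most matrix genes tested had a fold change above 0, and most were not called. Of 41 tested collagen and matrix genes 9 were called higher, 1 lower and 31 not, with a median log2 fold change of 0.50. Over all genes, 3.02% were called higher and 2.73% lower. Among the called matrix genes, MC38-MOCK#1 lay outside the samples of MC38-CMAS KO, MC38-WT and MC38-MOCK#2 for 7. The knockout lay outside the 3 control lines for 2. In MC38-DKO against MC38-COSMC KO, 5 were called higher and 14 lower, with a median of -0.41. Col1a1, a chain of collagen I, was at 175, 230 and 255 against 24, 22 and 39 (2.94, limma adjusted p = 0.00267), above MC38-WT (54 to 155) and MC38-MOCK#2 (90 to 134). Col1a2, the partner chain, was at 76, 59 and 78 against 21, 21 and 18, below MC38-WT (87 to 131). Sparc, a collagen-binding matricellular protein, was at 1155, 1254 and 1403 against 364, 412 and 531 (1.56, limma adjusted p = 0.00383), without overlap. Col8a1, of the short-chain collagens, was the 1 member called lower, from 48 to 53 down to 5 to 9, and 14 of the 41 had a fold change below 0. The count of calls on this list moved between 2 without the mock sample of passage 5 and 12 without that of passage 6. The fibroblast markers Col1a1 and Col1a2 are part of both lists, whereas Dcn stayed at 2 to 6 against 0 to 2 and Lum at 0 to 2 against 0.

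Of 22 tested proteases and inhibitors 5 were called higher and 3 lower, with a median of 0.45, and 15 had a fold change above 0. The share called over all genes was 5.76%. The 8 calls became 1 without the knockout sample of passage 5, 3 without the mock sample of passage 5 and 5 without the knockout sample of passage 4. Mmp16, a membrane-bound metalloproteinase, was at 92, 108 and 76 against 12, 20 and 13. Timp2 went the opposite way to Timp3, at 1215, 1211 and 1299 against 2438, 2118 and 1831 (-0.77, adjusted p = 0.0112 by limma), below MC38-WT (1950 to 2419) and MC38-MOCK#2 (2809 to 3355). Plaur, the urokinase receptor, fell by 0.57, and Adamts5 was at 0 in all knockout samples and at 3 to 5 in the mock.

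Regulators of the epithelial-mesenchymal transition moved in both directions. Prrx1, a mesenchymal homeobox factor, was at 723, 758 and 789 against 163, 150 and 147 (ratio of means 4.93, limma adjusted p = 0.00013). Snai1 was at 437, 456 and 445 against 228, 171 and 188, and Zeb1 at 281, 236 and 264 against 109, 117 and 143. Snai2, of the same family as Snai1, was at 54, 54 and 49 against 87, 97 and 153 (-1.04, adjusted p = 0.0465 by limma). Together with Cdh2 these were 3 genes up and 2 down among 24 tested, with a median of -0.28. Prrx1, Snai1 and Zeb1 in the knockout were within or below the MC38-WT range. Among 15 integrin genes, Itgb8 and Itgb4 were called higher and Itga3 and Itga1 lower. Itgb4, which anchors epithelial cells to laminin, was at 100, 100 and 95 against 36, 33 and 35, and Itga3, another laminin receptor chain, at 123, 157 and 151 against 364, 465 and 638. With a sample left out, the epithelial-mesenchymal list had 2 to 5 calls and the integrins 1 to 4. The counts of both lists were not tested against the 5.76% called over all genes.

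BMP and TGF-beta genes held 4 higher and 3 lower calls among 35, beside 5.76% called over all genes, with a median of 0.00. Grem1, a secreted BMP antagonist, was at 441, 476 and 588 against 19, 13 and 14 (4.95 ± 0.19, limma adjusted p = 0.000196), and at 1161 to 1766 in MC38-WT and 636 to 1044 in MC38-MOCK#2. The knockout thus lay between MC38-MOCK#1 and the other 2 control lines. Inhba, the activin A chain, was at 113, 89 and 134 against 10, 6 and 9, above MC38-WT (30 to 88). Bmper, a BMP-binding protein, rose from 26 to 28 up to 51 to 74. Bmp1, which cleaves procollagen, fell by 0.57 and Ltbp1, which stores latent TGF-beta, by 0.94, whereas Bmp6, also called lower, was at 0 in the knockout and 2 to 3 in the mock. The 7 calls of this list became 2 to 4 with any 1 sample left out.

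All 10 calls among interferon response and MHC class I genes were lower, and the level of these lists varied between samples of the same line. Of 56 interferon response genes, 7 were called lower and 0 higher, 50 had a fold change below 0, and the median was -0.67. Of 25 MHC class I and peptide-loading genes, 3 were called lower and 0 higher, and 24 had a fold change below 0. The median was -0.64. Over all genes tested, 2.73% were called lower. In MC38-DKO against MC38-COSMC KO both lists went the other way. There, 6 interferon genes were called higher and 0 lower (median 0.60), and 8 MHC class I genes higher and 0 lower (median 0.39). The mock sample of passage 6 was the highest of its line for 53 of the 56 interferon genes and the knockout sample of passage 4 for 49. Without that mock sample the interferon list had 4 lower calls and a median of -0.37, and its calls numbered 0 or 1 in the other 5 fits. The MHC class I list had 0 calls without the knockout or the mock sample of passage 5, 1 without the knockout sample of passage 6 or the mock sample of passage 4, and 2 in the other fits.

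The largest interferon changes were in the OAS family, the sensors of double-stranded RNA that activate RNase L. Oas1a was at 61, 22 and 25 in MC38-CMAS KO and at 152, 159 and 369 in MC38-MOCK#1 (-2.64, adjusted p = 0.0271 by limma). Oas1g was at 39, 17 and 19 against 106, 89 and 274, and Oas3 at 61, 43 and 34 against 182, 159 and 483. The groups did not overlap for any of the 3, but Oas1a and Oas1g are near-identical neighbours between which reads may be divided. The bases from 100 before to 50 after the start of these genes (RefSeq, GRCm38.p6, 5′ to 3′) are shown because they share the GAAANNGAAA core of the interferon-stimulated response element, in capitals, once in Oas3 and in a pair of overlapping copies in Oas1a and Oas1g. They lie at chr5:120907476-120907625 (Oas1a), chr5:120887564-120887713 (Oas1g) and chr5:120777610-120777759 (Oas3), all on the minus strand.
Oas1a: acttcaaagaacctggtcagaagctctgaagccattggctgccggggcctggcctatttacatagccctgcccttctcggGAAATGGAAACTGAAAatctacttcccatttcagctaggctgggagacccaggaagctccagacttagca
Oas1g: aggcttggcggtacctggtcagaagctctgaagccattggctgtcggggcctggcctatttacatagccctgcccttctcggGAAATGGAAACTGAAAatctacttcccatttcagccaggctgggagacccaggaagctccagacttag
Oas3: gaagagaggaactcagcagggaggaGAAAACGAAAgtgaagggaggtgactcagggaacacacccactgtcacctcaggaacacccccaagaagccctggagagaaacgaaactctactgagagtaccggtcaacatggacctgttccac
GAAANNGAAA or its reverse complement TTTCNNTTTC, with overlapping matches allowed, was found in a 300-base window of 27 of 43 interferon list genes with a window, and in 3.99% of the 27025 genes with a window. Of the 7 interferon genes called lower, 4 had it, and Irf1, Dtx3l and Samhd1 did not. Irf1, the interferon-induced transcription factor, was at 545, 455 and 456 against 747, 761 and 761 (-0.64, limma adjusted p = 0.0106). Apobec3, which deaminates retroviral DNA, was at 177, 168 and 152 against 297, 293 and 412, and Dtx3l and Samhd1 fell by 0.80 and 0.34. Isg15 was at 314, 161 and 70 against 74, 122 and 521 and Ifit1 at 133, 55 and 52 against 28, 25 and 124, so the lines overlapped for these strongly inducible genes. The OAS genes, Samhd1, Isg15, Ifit1 and the MHC molecules below were picked from the lists after their values were seen.

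Nlrc5, the transactivator of MHC class I, was at 204, 172 and 167 against 319, 327 and 420 (-0.96, limma adjusted p = 0.0132). Erap1, the aminopeptidase that trims peptides, was at 570, 569 and 593 against 803, 936 and 978, and Psmb10, an immunoproteasome subunit, at 868, 834 and 731 against 1145, 1196 and 1172. The molecules that present or form the complex were not called: H2-D1 was at 3931, 3557 and 3671 against 4954, 4383 and 5649 (-0.42, limma adjusted p = 0.0577), H2-K1 at 3971 to 4652 against 4788 to 6656, and B2m at 1462 to 1897 against 2120 to 2809. MC38-WT lay at 56 to 184 for Nlrc5 and at 559 to 824 for Erap1, overlapping the knockout for both.

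Of 28 genes of NF-kappaB and chemokines 3 were called higher and 5 lower, with a median of -0.03. Over all genes, 5.76% were called. Ptgs2 (cyclooxygenase 2) was at 2534, 3367 and 2984 against 1546, 1007 and 1417, Ccl7 at 44, 48 and 49 against 12, 11 and 21, and Nfkbiz at 346, 357 and 359 against 149, 99 and 228. Beside Traf1, the inhibitor gene Nfkbia (443, 478 and 482 against 692, 655 and 575) and the chemokine gene Cx3cl1 (81 to 142 against 198 to 325) were lower. None of these samples overlapped between the lines, which held for 24.3% of all tested genes. With any sample other than the mock of passage 6 left out, 1 of the 8 calls of this list was left. Without that mock sample there were 5.

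Several other lists held a few calls each, and these counts were not tested against the 5.76% called over all genes. Among 34 MAPK feedback genes 4 were called higher and 0 lower, with a median of 0.29, led by Il1rl1, the receptor of IL-33, at 2330, 3389 and 4059 against 869, 799 and 920 (1.88, limma adjusted p = 0.00427), with Phlda1 and Spry2 at 1.26 and 0.58. The MAPK calls numbered 0 without the knockout sample of passage 5 or the mock sample of passage 4 or 5, and 1 and 2 without the knockout sample of passage 4 or 6. Cholesterol and fatty acid synthesis had 5 higher and 0 lower calls among 30 and a median of 0.24. Sqle, squalene epoxidase, was at 2867, 2857 and 3049 against 1665, 1977 and 2219, and Lss, lanosterol synthase, at 2859, 2828 and 2734 against 1686, 1907 and 2179. All 5 calls of the cholesterol list were lost in 5 of the 6 fits with a sample left out, and 3 remained without the mock sample of passage 6. ER stress and amino acid response genes had 3 higher calls among 31 (median 0.23), Aldh1l2, Hsp90b1 and Shmt2, and p53 targets had 2 higher, Ddit4l and Eda2r, and 1 lower, Rrm2b, among 24. Ddit4l was at 358, 232 and 233 against 14, 29 and 37 and Eda2r at 149, 137 and 127 against 16, 22 and 13. Among 20 Wnt genes Wnt11 was higher and Apcdd1, Wnt10a and Rnf43 were lower. With a sample left out, the Wnt list had 0 calls in 5 of the 6 fits and 1 without the mock sample of passage 6. The ER stress list had 0 to 4 and the p53 list 1 to 5. In MC38-DKO against MC38-COSMC KO, 1 MAPK gene was called higher and 8 lower. The counts there were 3 and 6 for cholesterol, 2 and 9 for ER stress, 2 and 7 for p53 and 1 and 2 for Wnt genes.

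For proliferation, glycolysis and imprinted genes, the counts of calls were not tested against the 5.76% called over all genes. Of 38 cell cycle genes, Cdk4 (4628 to 4820 against 2936 to 3430, 0.55) and Ccnd2 (2920 to 3025 against 2518 to 2552, 0.22) were called higher, and the list had a median of -0.05. Of 33 glycolysis and hypoxia genes the platelet phosphofructokinase Pfkp was called, lower by 0.41 on the log2 scale, with a list median of -0.06. Among 19 imprinted genes 4 were called higher and 1, Snrpn, lower. Cdkn1c, a cyclin-dependent kinase inhibitor, was at 61, 53 and 52 against 4 in each mock sample, Igf2r at 1440, 1366 and 1553 against 268, 292 and 421, and H19 at 14, 23 and 14 against 0, at least 5.67-fold higher on the floor of 3 counts.

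Cmas loss was also present in MC38-DKO, which was compared with MC38-COSMC KO to see which changes came back on another background. This comparison shares no sample with the first. It called 2838 of 22008 genes (12.9%). Without the MC38-DKO sample of passage 5 or 6 it called 1274 and 1702, and without the MC38-COSMC KO sample of passage 4, 5 or 6 it called 1552, 1050 and 1291. Of the 1259 genes called in MC38-CMAS KO and tested here, 742 (58.9%) were called, and these were 26.3% of the 2819 called here and tested in both. Only 23 of the 742 went the same way, 15 higher and 8 lower, and 719 went the opposite way. Regardless of calls, 66.0% of the 19755 genes tested in both with a fold change other than 0 had opposite signs, and 87.8% of those called in MC38-CMAS KO. Of the 719, 378 were higher in the first comparison and lower in the second, and 341 the reverse. Several genes high in MC38-CMAS KO and low in MC38-MOCK#1 were low in MC38-DKO and high in MC38-COSMC KO, among them Timp3 (1 to 5 in MC38-DKO, 761 to 943 in MC38-COSMC KO, log2 fold change -7.88), Col6a3 (121 to 228 and 3765 to 4292, -4.64) and Renbp (123 to 149 and 291 to 356, -1.25).

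**Figure D4:**
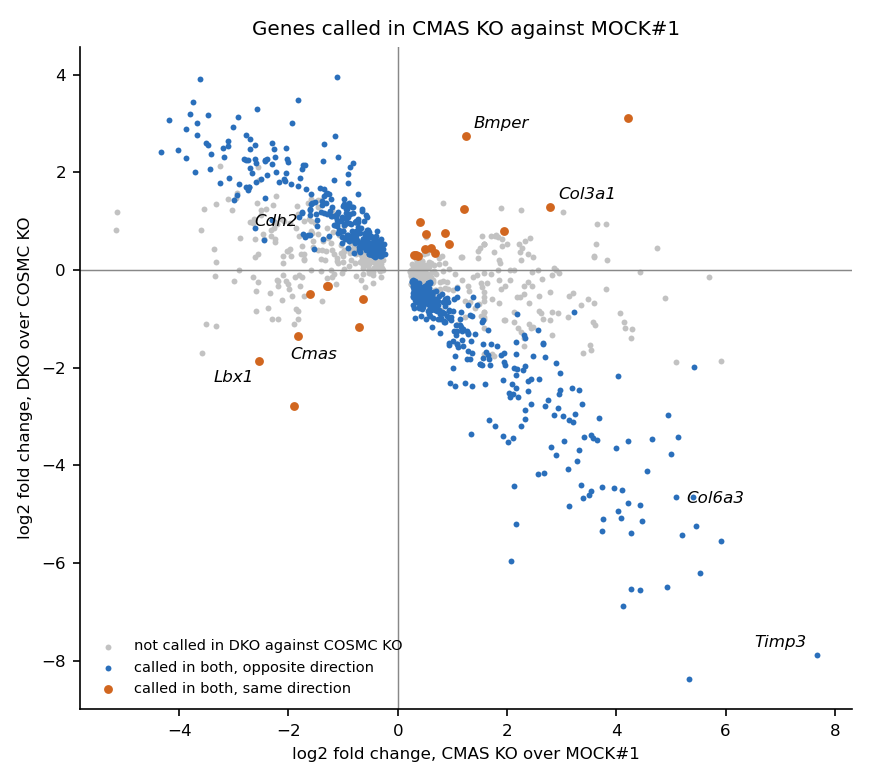
The 1259 genes called in MC38-CMAS KO against MC38-MOCK#1 and tested in both comparisons, with the log2 fold change of MC38-CMAS KO over MC38-MOCK#1 on the horizontal axis and of MC38-DKO over MC38-COSMC KO on the vertical axis. Blue points are the 719 genes called in opposite directions, orange points the 23 called in the same direction, Cmas among them (-1.82 and -1.36), and grey points those not called in the second comparison.

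Cmas was 1 of the 8 genes lower in both, at 142, 135 and 122 in MC38-DKO and 350, 356 and 322 in MC38-COSMC KO (-1.36, limma adjusted p = 0.0003). The difference between the 2 effects was -0.46 and did not pass the test (limma adjusted p = 0.0740). Lbx1, a homeobox gene, was at 5, 6 and 2 against 16, 30 and 45 in the first comparison and at 6 in each MC38-DKO sample against 38, 20 and 19 in the second. Trpv2, a cation channel gene, fell by 0.71 and 1.17, and Tmcc3 by 0.63 and 0.60. Pde6d, which moves prenylated proteins, fell by 1.60 and 0.49, and the difference between these effects passed the test (-1.11, limma adjusted p = 0.0205). Pde6d, Usp40 and Dgkd, all among the 8, lie in the run on chromosome 1 described below. For these genes MC38-MOCK#1 lay above all 21 samples of the other lines. Of the 23 genes called the same way, 8 had a called difference between the effects.

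Among genes higher in both, Col3a1, the chain of collagen III, was at 291, 207 and 316 against 34, 24 and 65, and at 234, 134 and 138 against 88, 58 and 57 (2.79 and 1.29). Bmper was at 74, 71 and 51 against 28, 26 and 26, and at 87, 66 and 84 against 12, 12 and 9 (1.24 and 2.74). Tst, the mitochondrial thiosulfate sulfurtransferase, was at 103, 97 and 76 against 42, 32 and 44, and at 76, 77 and 79 against 30, 29 and 37 (1.21 and 1.26). Rhox2h, from a family of similar homeobox genes, rose by 0.86 and 0.77, Bpgm by 0.60 and 0.45, and Cald1 by 0.52 and 0.73. Neither set of samples overlapped for these genes. Of the 23, 8 (Cmas, Tst, Rhox2h, Neo1, Atp13a4, Mpzl3, Gm35940 and Rpl39-ps) had all 3 knockout samples outside the 9 of MC38-MOCK#1, MC38-WT and MC38-MOCK#2. By mean, however, MC38-FUT4 was above the knockout for Tst (184), Rhox2h (213) and Atp13a4 (564), and MC38-FUT9 for Neo1 (2710). For Cmas, no line without Cmas targeting reached the knockout. MC38-MOCK#2 held 5020 to 13474 for Col3a1 and 370 to 695 for Bmper, far above the knockout. The test of the difference between the effects called 4632 of 24385 genes (19.0%), with Renbp (2.43), Ctsa (0.56) and Casd1 (1.07) from the sialic acid list.

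By chromosome, calls were uneven. Among genes with a mean of at least 10, 4.22% were called higher and 3.99% lower. On chromosome 10, which holds Timp3, Cdk4, Psap and Hsp90b1, 83 of 644 genes were higher and 11 lower, with a median log2 fold change of 0.17. Chromosome 4 had 72 higher and 17 lower of 866 and chromosome 15 had 48 and 12 of 486. The reverse held on chromosome 13, with 21 higher and 57 lower of 539, on chromosome 18, with 10 and 33 of 324 and a median of -0.20, and on chromosome 12, with 9 and 33 of 504.

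A run of neighbours on chromosome 1 was lower together. It was picked after its values were seen and runs from Pde6d to Sh3bp4 (GRCm38 chr1:86542994-89155068, 2.61 Mb). Of its 14 genes with a mean of at least 20 in the higher line, 9 were called lower, with log2 fold changes of -1.80 to -1.02, 1 was called higher and 4 were not called, and the median was -1.14. The 39 other genes of the surrounding 10 Mb had 2 lower and 3 higher calls and a median of -0.02. Dgkd, a diacylglycerol kinase, was at 1588, 1619 and 1724 against 3208, 3905 and 4997. Gigyf2 and Eif4e2, partners in translational repression, were at 1350 to 1512 against 2713 to 4508 and at 1390 to 1486 against 2566 to 4061. Sh3bp4, a regulator of receptor traffic, was at 386, 386 and 411 against 1122, 1462 and 1586, and Usp40, a deubiquitinase, at 687, 805 and 785 against 1524, 2033 and 2051. For 10 of the 14 genes the MC38-MOCK#1 samples lay above all 21 samples of the other 7 lines. Ngef, in the same run, went the other way, at 54, 61 and 61 against 2, 3 and 3. Whether gene copy number differs there between the lines was not tested.

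**Figure D5:**
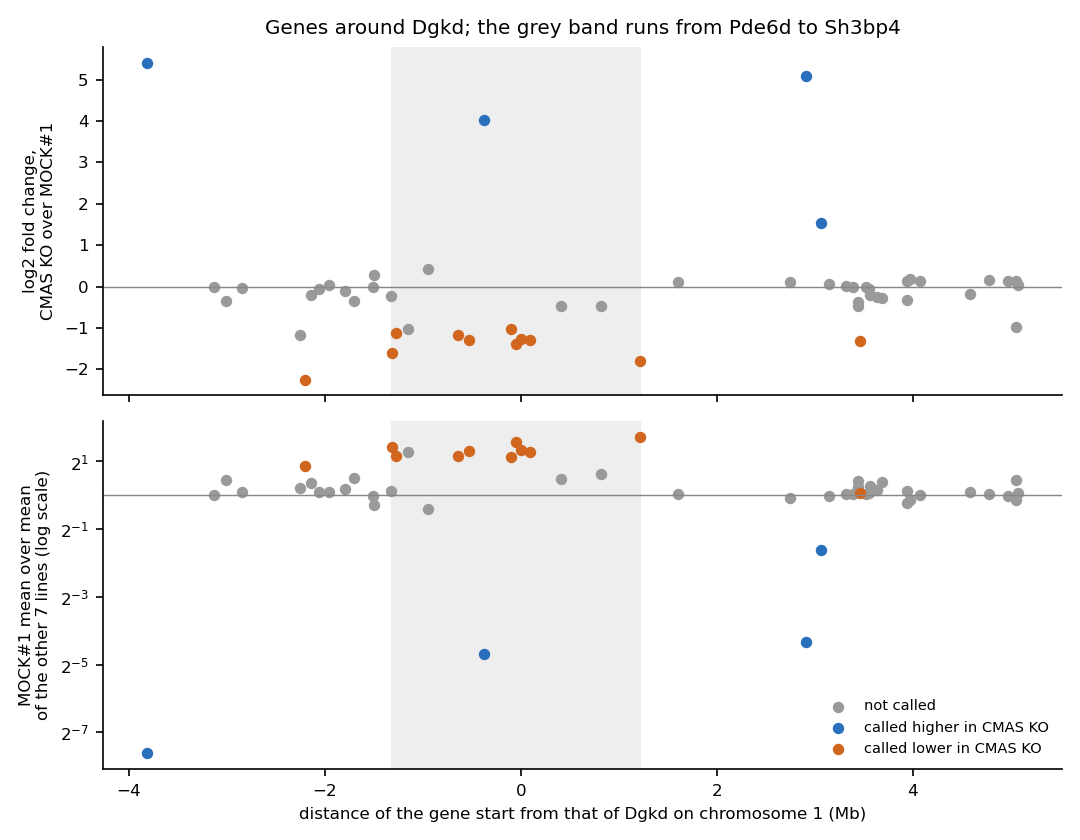
Genes of 10 Mb of chromosome 1 by the distance of their start from that of Dgkd, in Mb (horizontal axes), with the log2 fold change of MC38-CMAS KO over MC38-MOCK#1 above and the MC38-MOCK#1 mean divided by the mean of the other 7 lines below (log scale). In the grey band from Pde6d to Sh3bp4, 9 of 14 genes are called lower (orange) and Ngef is called higher (blue), whereas most genes on both sides sit near 0 above and near 1 below.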

How the data were processed

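RNA of 24 cultures of 8 MC38 lines, 3 per line, was sequenced as poly(A) libraries made with a stranded kit. According to the study's methods and the submitters' processing notes, the authors aligned reads to GRCm38 with HISAT2 2.0.4, counted them per gene with featureCounts of Subread 1.5.0-p3, used SAMtools 0.1.19, and normalized with edgeR 3.18.1. The deposited values are normalized counts that the authors rounded to whole numbers, handled here as a score and not as raw counts, so no count model was fitted. Column names mapped 24 columns to samples, and 0 sample columns were left unmapped. Genes with a value of 0 in at most 4 of the 6 samples were kept. Their log2(value + 1) was fitted per comparison in limma 3.58.1 (R 4.3.3) with a trended empirical Bayes variance, and Benjamini-Hochberg adjusted p under 0.05 was a call. The difference between both Cmas comparisons was the interaction over 4 lines. On simulated data for MC38-CMAS KO against MC38-MOCK#1, with 21192 genes, 164 of 200 genes changed 2-fold and 0 unchanged genes were called. The simulation drew noise independently per gene and sample and changed only genes with a mean of at least 20. It cannot give the rate of false calls where whole gene lists shift together between samples of a line. Library depth was estimated from the steps that rounding leaves among low values.

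Named genes were Cmas and C1galt1c1, the sialic acid list, the 10 largest called changes of either direction (no overlap, mean of at least 20 in the higher line, a gene name), up to 3 called genes of either direction per list by adjusted p, and 6 of either direction called the same way in both losses. A few genes that meet this rule are not reported here. Genes named beyond this rule were chosen after their values were seen. The members and lists were chosen with earlier results of these data known. Promoter windows came from RefSeq, GRCm38.p6. Tables and plots used Python 3.11.15, pandas 2.3.3, numpy 2.4.6 and matplotlib 3.10.9.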

Additional observations from a re-analysis of the deposited data

Results flagged for a closer look

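The effect of Cmas loss was tested for a difference between the background without and with C1galt1c1 targeted, over 4 lines in limma. The difference passed the test for 4632 of 24385 genes (19.0%). It passed for 100 of the 123 named genes, most of which were named for a call in 1 of the effects that enter the difference, so this count is no result about them. From the sialic acid list, the log2 fold change in MC38-CMAS KO against MC38-MOCK#1 exceeded that in MC38-DKO against MC38-COSMC KO by 2.43 for Renbp, 1.07 for Casd1 and 0.56 for Ctsa. With 1 line per genotype, the second targeted gene and other differences between the lines cannot be told apart.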

How the results depend on the processing

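The 1268 calls of MC38-CMAS KO against MC38-MOCK#1 became 2207 with all 24 samples in a single fit, 726 without the variance trend, 580 with a log2 fold change above 1 also required, and 122 to 876 with a sample left out. The pseudocount, the filter on low values and the scaling kept this count within 1.5 times. MC38-DKO against MC38-COSMC KO gave 1238 calls without the trend, 794 under the stricter call and 1050 to 2154 with a sample left out, and the difference between both effects gave 1970 under the stricter call. The sample number, which followed passage 4, 5 and 6 in both lines, was also fitted as a block for MC38-CMAS KO against MC38-MOCK#1. With it 1 gene (Col6a3) was called, 3960 genes had an unadjusted p under 0.05, and Cmas had a limma adjusted p of 0.107. The correlations of deviations between samples of equal number ranged from -0.219 to 0.1003 in these lines. They ranged from -0.0114 to 0.182 in MC38-DKO and MC38-COSMC KO. Deviations from means of 3 samples cannot show whether equal numbers were paired. Over the fits with a sample left out, 4 uncalled genes near 0 changed sign, with log2 fold changes of -0.0027 to 0.080 for Nans, -0.087 to 0.46 for Nanp, -0.13 to 0.23 for Slc17a5 and -0.17 to 0.15 for Siae. The cause was not tested. Depth limits the precision of genes of a few counts, such as Cmah, Bmp6 and Adamts5.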
